A study of Mus musculus with 12 samples.

Results

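The insulin-like growth factor (IGF) binding proteins Igfbp1 to Igfbp7, the ligand Igf1 and the receptors Igf1r and Insr were followed in mouse yolk sacs with and without ectopic Norrin. These 10 genes were chosen by name, with earlier results of these data known. Shares over all genes set beside them are therefore a description and not a test of the set. On the Affymetrix mouse genome array 28 probe sets map to 1 of them alone, of 34945 probe sets with 1 gene, and all 10 genes were measured among 18193. Each gene was read from its probe set with the highest mean over the 12 arrays. The other probe sets are given beside it for Norrin at E10.5, and for some genes in the other comparisons.

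The 12 arrays fell into 4 groups of 3: Norrin at embryonic day 10.5 (E10.5), wild type at E10.5, Norrin at E8.5 and wild type at E8.5. The Norrin yolk sacs came from Z/Norrin mice, in which a conditional over-expression allele makes the secreted Frizzled4 ligand Norrin. What switches the allele on, and in which cells, is not given in the sources used here. Each array held 1 pool of 3 to 5 yolk sacs. Both sexes were mixed, and the strain was a C57Bl6/129 mix in all 4 groups. Replicates are therefore separate pools, and a p-value sets a difference against the spread between pools. Values are log2 expression values after robust multi-array averaging (RMA), and a difference of 1 on this scale is a doubling. They set groups against each other within a gene, not genes against each other.

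IGF1 and IGF2 are growth factors that act through the receptor tyrosine kinase encoded by Igf1r, and insulin acts through that encoded by Insr. The binding proteins IGFBP1 to IGFBP6 hold IGFs with high affinity outside the cell, carry them and in most settings keep them from the receptor, while IGFBP7 is a relative that binds them weakly. IGFBP1 is best known as a liver protein that insulin represses and fasting and low oxygen induce, and the visceral endoderm of the yolk sac shares much of the liver's secretory repertoire. In the mouse, 4 of the binding protein genes lie as tail-to-tail neighbours, Igfbp1 with Igfbp3 and Igfbp2 with Igfbp5.

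The promoters of the 3 binding protein genes that were higher in Norrin at E10.5 are shown because these genes changed together. Each is the 250 bases before the RefSeq start on mouse build GRCm38.p6, on the gene's own strand, in lower case. Capitals mark matches, on either strand, to the words ACGTG and GCGTG (the cores of hypoxia response elements), CTTTGAT (a TCF word), GTAAACA (a FoxO word) and CAAAACAA (a word of insulin response elements). The Igfbp1 window lies at chr11:7197537-7197786 on the plus strand, and that of Igfbp3 at chr11:7213924-7214173 on the minus strand. The window of the first of the 2 listed starts of Igfbp2 lies at chr1:72824230-72824479 on the plus strand. The Igfbp3 window lies inside the gene's full span (7206086 to 7215498), so its start is not the outermost start of the gene.
Igfbp1: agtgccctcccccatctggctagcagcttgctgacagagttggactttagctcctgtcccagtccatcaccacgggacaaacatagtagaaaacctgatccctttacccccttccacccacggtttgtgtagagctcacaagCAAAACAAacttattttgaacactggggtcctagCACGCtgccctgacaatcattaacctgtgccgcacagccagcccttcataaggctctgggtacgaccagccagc
Igfbp3: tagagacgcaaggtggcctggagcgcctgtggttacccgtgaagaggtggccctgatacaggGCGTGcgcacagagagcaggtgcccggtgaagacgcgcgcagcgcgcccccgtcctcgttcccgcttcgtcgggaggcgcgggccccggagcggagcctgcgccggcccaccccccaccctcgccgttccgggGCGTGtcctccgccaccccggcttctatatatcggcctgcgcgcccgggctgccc
Igfbp2: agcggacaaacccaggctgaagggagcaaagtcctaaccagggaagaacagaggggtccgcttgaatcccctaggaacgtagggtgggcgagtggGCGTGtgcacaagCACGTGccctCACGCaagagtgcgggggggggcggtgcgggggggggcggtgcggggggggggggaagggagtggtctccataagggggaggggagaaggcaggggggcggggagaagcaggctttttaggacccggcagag

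The Igfbp1 window held 1 CAAAACAA, starting 108 bases before the start site, a word present in 2.21% of 32851 mouse promoter windows of the same length. It also held 1 GCGTG on the opposite strand. The Igfbp3 window held 2 GCGTG. The Igfbp2 window held 2 GCGTG and a CACGTG, which is ACGTG on both strands in overlap. GCGTG was present in 28.2% and ACGTG in 16.6% of all windows. None of the 3 windows held CTTTGAT or GTAAACA, present in 3.21% and 3.17%. The second listed start of Igfbp2 had none of the 5 words. Of the other members with a listed window (9 of the 10 have one, Insr does not), Igfbp7 held both hypoxia words, Igf1 and Igf1r held GCGTG, and Igfbp4, Igfbp5 and Igfbp6 held none of the 5 words. A match is a description of the sequence and not a site in use.

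The arrays within a group correlated across genes at r = 0.975 to 0.992. Pairs of arrays of the same stage shared 26 to 93 identical values and pairs across stages shared 0, which places the stages in separate RMA runs, so that stage and run cannot be told apart. Visceral endoderm markers were strong in every pool, with Afp between 12.99 and 14.78. Of 6 trophoblast markers, Tpbpa, a spongiotrophoblast gene, and Prl7d1 stood out in Norrin E10.5 replicate 2. They lay at 11.90 and 10.50, against 5.63 to 6.55 and 4.72 to 6.84 in the other 5 E10.5 pools. Elf5, Ascl2 and Plac1 lay at 6.22, 7.51 and 10.67 there, against at most 6.10, 7.21 and 10.28 in the others. Hand1 lay inside the range of the others. At E8.5, Norrin replicate 2 had the highest summed trophoblast level of its stage (12.01, against 10.59 to 11.31 in the others). The hybridisation control probe sets averaged 12.09 and 12.11 in the Norrin and wild type replicates 3 at E8.5, against 10.62 to 11.01 in the other 4 pools of that stage. In pools of whole tissue, fewer cells of a type and less RNA per cell cannot be told apart.

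At E10.5, 3 of the 10 genes passed as higher in Norrin yolk sacs, Igfbp1, Igfbp3 and Igfbp2, and 0 passed as lower. All 3 encode IGF binding proteins, as do most of the 10. By limma, adjusted over all 18193 genes, 4.07% of genes passed the threshold of 0.05 in this comparison, 1.85% of genes as higher and 2.22% as lower. At an unadjusted p under 0.05 there were 5 members, where 14% of genes were. The median effect of the 10 members was 0.43, against -0.00 over all genes. The groups did not overlap in 6 of the 10, with Norrin above in 4 and below in 2, and in 22.9% of all genes, 11.4% above and 11.5% below.

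Igfbp1, the liver-type binding protein, had the largest effect of the members. It measured 13.37, 13.85 and 13.57 in the 3 Norrin pools, against 10.67, 11.61 and 10.95 in wild type. Every Norrin pool lay more than a doubling above every wild type pool. The mean was 13.60 ± 0.24 in Norrin and 11.08 ± 0.49 in wild type (SD, n = 3 each), a 5.75-fold difference (log2 2.52, SE 0.62, 95% interval 1.18 to 3.87, adjusted p = 0.0398). Among all 18193 genes, 7 had a larger positive effect. All 3 Norrin pools lay above the 99th percentile of all array values, 12.72.

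Igfbp3, the main carrier of IGFs in blood, measured 10.22, 10.10 and 10.02 in Norrin pools, against 8.49, 8.76 and 8.20 in wild type. The Norrin pools differed among themselves by less than the wild type pools did. Igfbp3 was 3.1-fold higher in Norrin (log2 1.63, SE 0.28, 95% interval 1.02 to 2.24, adjusted p = 0.0067). Its other probe set gave 1.51, with an adjusted p of 0.031 when every probe set was tested.

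Igfbp2, a binding protein common in embryonic tissues, measured 10.80, 10.12 and 9.84 in Norrin pools, against 9.67, 9.21 and 9.12 in wild type. The groups did not overlap, though the lowest Norrin pool lay close to the highest wild type pool. The effect was 0.92 (SE 0.23, 95% interval 0.43 to 1.41), a 1.89-fold difference (adjusted p = 0.041). Igfbp1 and Igfbp2 have a single probe set each, so no second reading exists on this array.

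Igfbp4, a binding protein that the protease PAPPA cleaves, lay the other way. It measured 12.72, 12.66 and 12.84 in Norrin pools, against 13.06, 13.13 and 13.15 in wild type. The groups did not overlap, and the effect was -0.37 (SE 0.11, adjusted p = 0.0784). All 6 Igfbp4 probe sets gave a negative effect, between -0.50 and -0.37, and 1 of them passed when every probe set was tested (-0.49, adjusted p = 0.0398). That probe set belongs to a class in which some probes can match other transcripts. The wild type values lay above the 99th percentile of all array values, 12.72.

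Igfbp5, Igfbp6 and Igfbp7 did not pass the threshold at E10.5. Igfbp5, a binding protein that also sticks to extracellular matrix, ranged from 9.83 to 10.45 in Norrin and from 9.79 to 9.86 in wild type. Its effect was 0.38 (adjusted p = 0.579), with 2 Norrin pools above all wild type pools and the third beside them, and -0.05 by its second probe set. Igfbp6, which prefers IGF2, ranged from 6.92 to 7.39 in Norrin and from 6.91 to 7.22 in wild type, under the median gene level of 7.68. Igfbp7 ranged from 7.85 to 7.92 in Norrin and from 7.72 to 7.94 in wild type. Its effect of 0.06 had a 95% interval of -0.25 to 0.37, and its other probe sets gave -0.33 and -0.14.

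**Figure D1:**
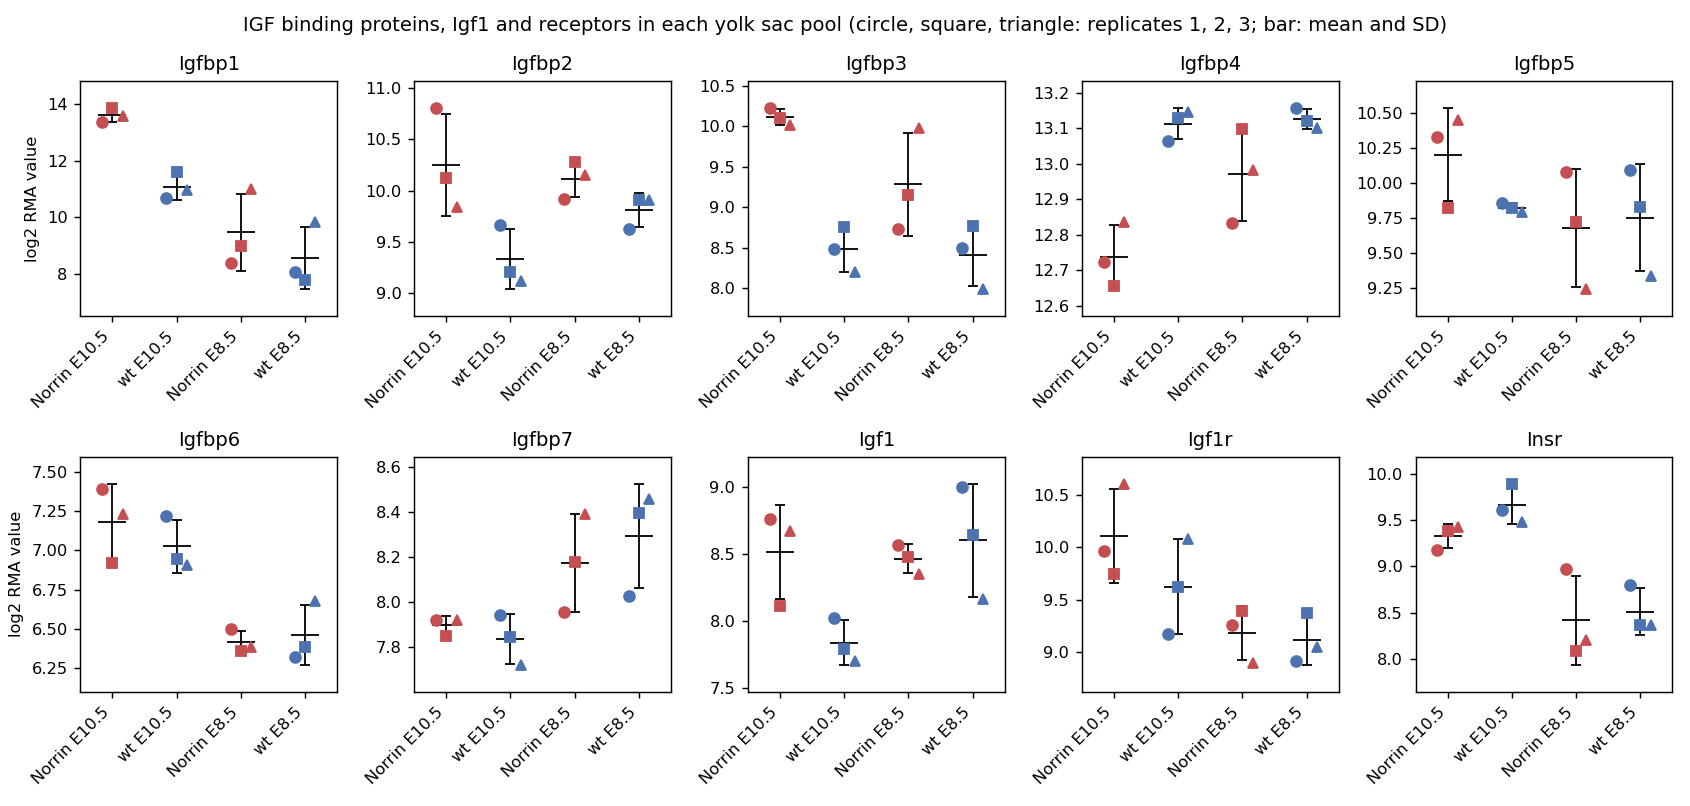
Log2 RMA value of each gene (vertical axis, own scale per panel) in the 3 pools of Norrin E10.5, wild type E10.5, Norrin E8.5 and wild type E8.5, with the group mean and SD. Igfbp1, Igfbp2 and Igfbp3 in Norrin at E10.5 lie above all wild type pools of that stage, and Igfbp4 lies below them.

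Igf1, the growth factor itself, measured 8.76, 8.11 and 8.67 in Norrin pools at E10.5, against 8.02, 7.79 and 7.70 in wild type. The groups did not overlap, and the effect was 0.68 (SE 0.21, 95% interval 0.21 to 1.14, adjusted p = 0.121). All 4 Igf1 probe sets gave a positive effect, between 0.46 and 0.68. The receptor genes lay on opposite sides of 0. Igf1r ranged from 9.75 to 10.61 in Norrin and from 9.17 to 10.08 in wild type, with overlapping groups and an effect of 0.48 (adjusted p = 0.467). Its 5 probe sets ran from 0.00 to 0.61. Insr ranged from 9.18 to 9.42 in Norrin and from 9.48 to 9.89 in wild type, with no overlap and an effect of -0.33 (adjusted p = 0.608). Its 3 probe sets were all negative, from -0.33 to -0.02.

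**Figure D2:**
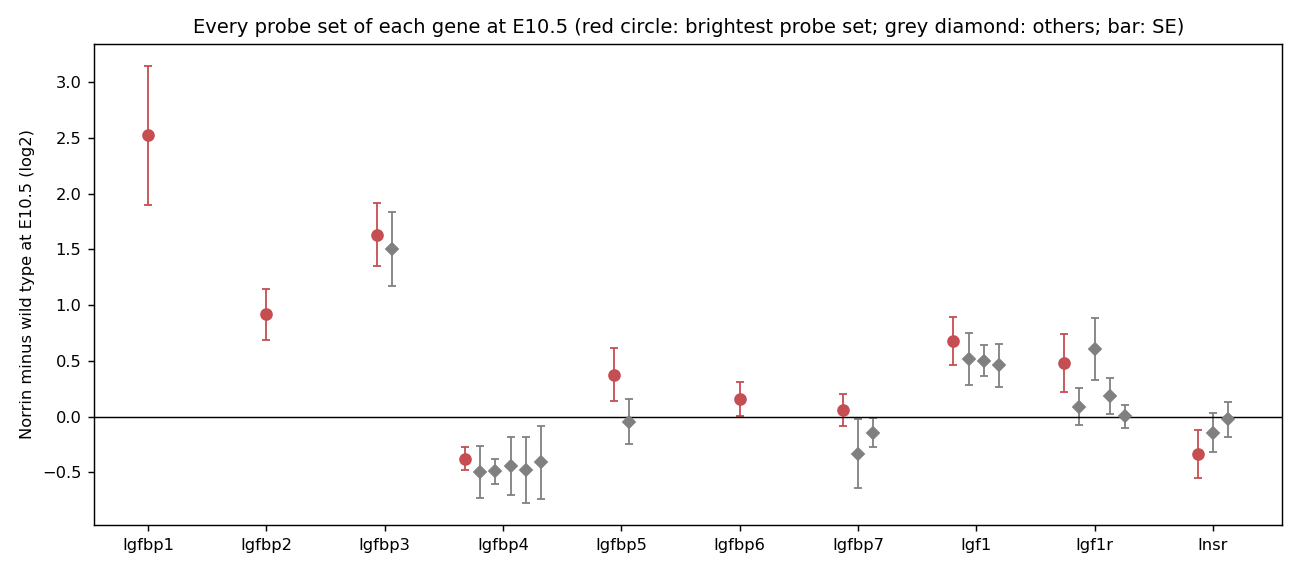
Norrin minus wild type at E10.5 (log2, vertical axis) with its SE for each of the 28 probe sets, grouped by gene, the brightest probe set as a red circle and the others as grey diamonds. Both Igfbp3 probe sets lie above 1.5, all 6 of Igfbp4 lie below 0 and all 4 of Igf1 lie above 0.

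The labels number the replicates and state no pairing, so pairing by number is an assumption. The deviations of same-numbered Norrin and wild type pools from their group means correlated across genes at 0.51, 0.21 and 0.22 for numbers 1 to 3 at E10.5, and at 0.73, 0.32 and 0.73 at E8.5. For pools of different numbers the correlations ran from -0.35 to 0.16 at E10.5 and from -0.72 to 0.30 at E8.5. Deviations from a group's own mean cancel out, so positive values for equal numbers lower the others. Within a number at E10.5, Norrin minus wild type was 2.71, 2.24 and 2.62 for Igfbp1, 1.73, 1.35 and 1.82 for Igfbp3, and 1.14, 0.91 and 0.71 for Igfbp2. For Igfbp4 it was -0.34, -0.47 and -0.31, and for Igf1 0.74, 0.32 and 0.97. With Igf1r, Igfbp5 and Insr, 8 of the 10 members had the same sign in 3 of 3 pairs, as 48.4% of all genes did. Igfbp5 counts here through a difference of 0.00072 in replicate 2. At E8.5, 6 of the 10 members had the same sign in 3 of 3 pairs, as 44.4% of all genes did. At E10.5 a fit that blocked on replicate number inside each stage passed 5 members, 4 higher and 1 lower, and 13.2% of all genes. The adjusted p was 0.00011 for Igfbp1, 0.00079 for Igfbp2, 0.0073 for Igfbp3, 0.017 for Igf1 and 0.028 for Igfbp4, and it was 0.0532 for Igf1r, the nearest of the others.

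**Figure D3:**
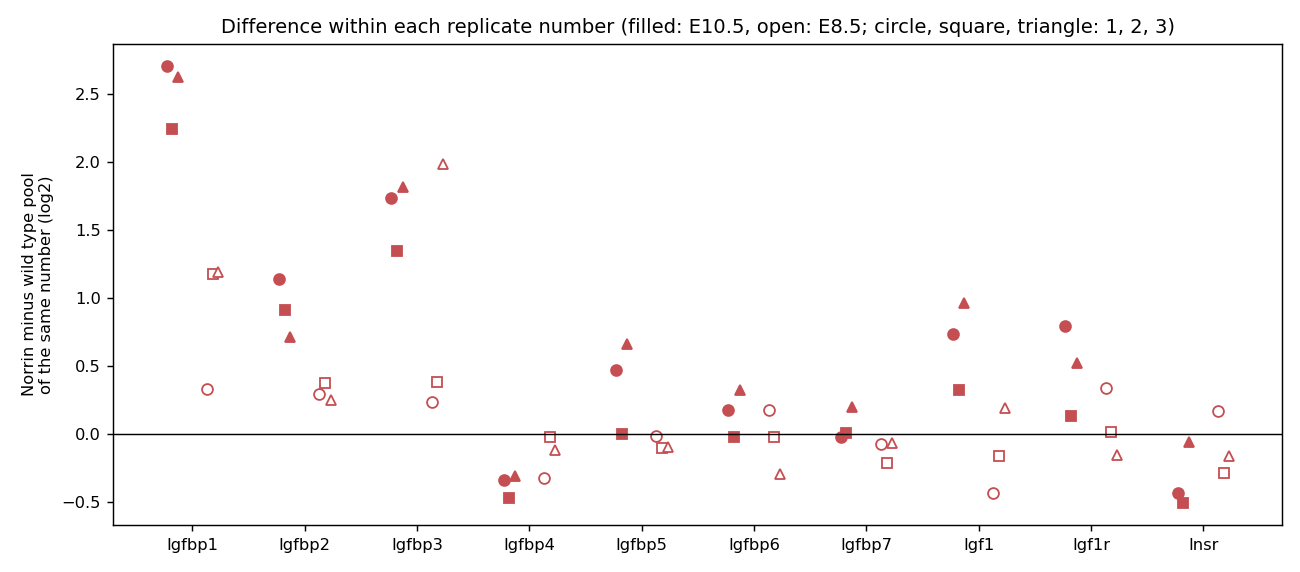
Norrin pool minus the wild type pool of the same number (log2, vertical axis) for each gene, filled at E10.5 and open at E8.5, with 1 symbol per replicate number. At E10.5 the 3 differences of Igfbp1 lie between 2.24 and 2.71, and at E8.5 between 0.33 and 1.19.

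The calls of Igfbp1 and Igfbp2 without the block were close to the threshold, and that of Igfbp3 was not. Without any 1 of the 12 arrays Igfbp3 kept an adjusted p under 0.05, with effects of 1.49 to 1.77. Igfbp1 lost its call without any 1 of the 6 E10.5 arrays (adjusted p = 0.067 to 0.141, effects 2.32 to 2.79), without wild type E8.5 replicate 1 (0.0553) and without Norrin E8.5 replicate 2 (0.0548). Igfbp2 lost its call without wild type E10.5 replicate 2 (0.138) or 3 (0.156), without Norrin E10.5 replicate 1 (0.122) or 2 (0.072), and without wild type E8.5 replicate 1 (0.0539) or 2 (0.0571) or Norrin E8.5 replicate 2 (0.0581) or 3 (0.0516). When every probe set was tested, both Igfbp1 (0.0545) and Igfbp2 (0.0548) lost their calls. Igfbp2 also lost its call with a replicate block shared by both stages (0.0562) and with the 6 arrays of the stage alone (0.113). Igfbp1 kept its call in both of these limma fits (adjusted p = 0.0229 with the shared block and 0.0048 with the stage alone). Without Norrin E10.5 replicate 2, the pool with high Tpbpa and Prl7d1, Igf1 passed (0.88, adjusted p = 0.0475) and the effects of Igfbp1, Igfbp3 and Igfbp2 were 2.40, 1.64 and 0.99.

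Markers of other cell types also differed between the E10.5 groups. Over all genes limma passed 1.85% as higher and 2.22% as lower there, and 14% had an unadjusted p under 0.05. The summed level of 13 visceral endoderm markers ran from 16.87 to 17.00 in Norrin and from 17.26 to 17.39 in wild type (log2 of the summed linear values), and 0 of the 13 rose and 3 fell. Of 10 parietal endoderm markers 3 rose, with summed levels of 15.30 to 15.45 in Norrin and 14.64 to 14.84 in wild type. Of 9 decidua markers 1 rose (Wnt4, 1.00), with summed levels of 11.37 to 11.95 in Norrin and 10.93 to 11.08 in wild type. Prl8a2, a prolactin relative of the decidua, measured 9.84, 7.24 and 10.23 in Norrin pools and 6.98, 7.70 and 7.55 in wild type. Of 6 trophoblast markers limma passed 0, and 1 had an unadjusted p under 0.05, with summed levels of 11.12 to 12.95 in Norrin and 10.14 to 10.82 in wild type. Of 10 mesenchyme and mesothelium markers 3 rose, with 16.13 to 16.17 in Norrin and 15.72 to 15.92 in wild type. Of 9 erythroid markers 6 fell, with 15.66 to 15.83 in Norrin and 15.94 to 16.46 in wild type. Of 8 endothelial, 9 macrophage and 7 neural markers limma passed 0, and 2, 0 and 1 of them had an unadjusted p under 0.05. At E8.5 the visceral endoderm sum was 16.57 to 16.88 in Norrin and 17.08 to 17.20 in wild type. Of its 13 markers 1 fell and 6 had an unadjusted p under 0.05, against 0.077% and 7.22% of all genes. The parietal endoderm sum at E8.5 was 14.54 to 14.94 in Norrin and 14.18 to 14.52 in wild type. The macrophage sum was 10.11 to 10.58 in Norrin and 10.64 to 10.7 in wild type. Limma passed 0 markers of these 2 lists at E8.5. The other sums overlapped. The part of these cell types in the IGF gene results was not tested. Among the Norrin E10.5 pools Igfbp1 was highest in replicate 2, and Igfbp2 and Igfbp3 were highest in replicate 1.

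At E8.5 limma passed 0 of the 10 genes, and Igfbp3 was the 1 member with an unadjusted p under 0.05, where 0.077% of genes passed and 7.22% had an unadjusted p under 0.05. The median effect was -0.06, against -0.02 over all genes. In 2 of the 10 the groups did not overlap, Igfbp2 above and Igfbp4 below wild type, as they did in 11.9% of genes. The members furthest from 0 were again Igfbp1, Igfbp3 and Igfbp2, with effects of 0.90, 0.87 and 0.31.

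Igfbp1 measured 8.39, 8.97 and 11.01 in Norrin pools at E8.5, against 8.06, 7.79 and 9.82 in wild type. Replicate 3 was the highest pool of both groups, and these are the arrays with the high hybridisation controls. The pools of a group spread over 1.10 to 1.38 (SD), and the effect of 0.90 had a 95% interval of -0.44 to 2.24 (adjusted p = 0.75). Within replicate numbers it was 0.33, 1.18 and 1.19. In the fit blocked on replicate number Igfbp1 was the 1 member that passed (adjusted p = 0.0468), where 1.41% of genes did. Leaving out 1 array moved the effect between 0.12 (without Norrin E8.5 replicate 3) and 1.53 (without wild type E8.5 replicate 3), either of which splits the pair of high pools, and it was 1.43 without Norrin E8.5 replicate 1.

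Igfbp3 measured 8.73, 9.15 and 9.98 in Norrin pools at E8.5, against 8.49, 8.77 and 7.99 in wild type. The lowest Norrin pool lay just under the highest wild type pool. The effect was 0.87 (SE 0.28, adjusted p = 0.515), or 0.46 by its second probe set. With 1 array left out it ran from 0.52 (without Norrin E8.5 replicate 3) to 1.15 (without Norrin E8.5 replicate 1). Norrin replicate 3 is the pool whose paired difference of 1.99 stood beside 0.23 and 0.38 in the other 2 pairs. Igfbp2 measured 9.92, 10.28 and 10.16 in Norrin pools, against 9.62, 9.91 and 9.90 in wild type. Its paired differences of 0.29, 0.37 and 0.25 were close to each other (adjusted p = 0.758, or 0.146 with the block). Igfbp4 had an effect of -0.15, negative by all 6 probe sets. Igf1 had an effect of -0.14, and Igfbp5, Igfbp6, Igfbp7, Igf1r and Insr lay between -0.12 and 0.07.

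**Figure D4:**
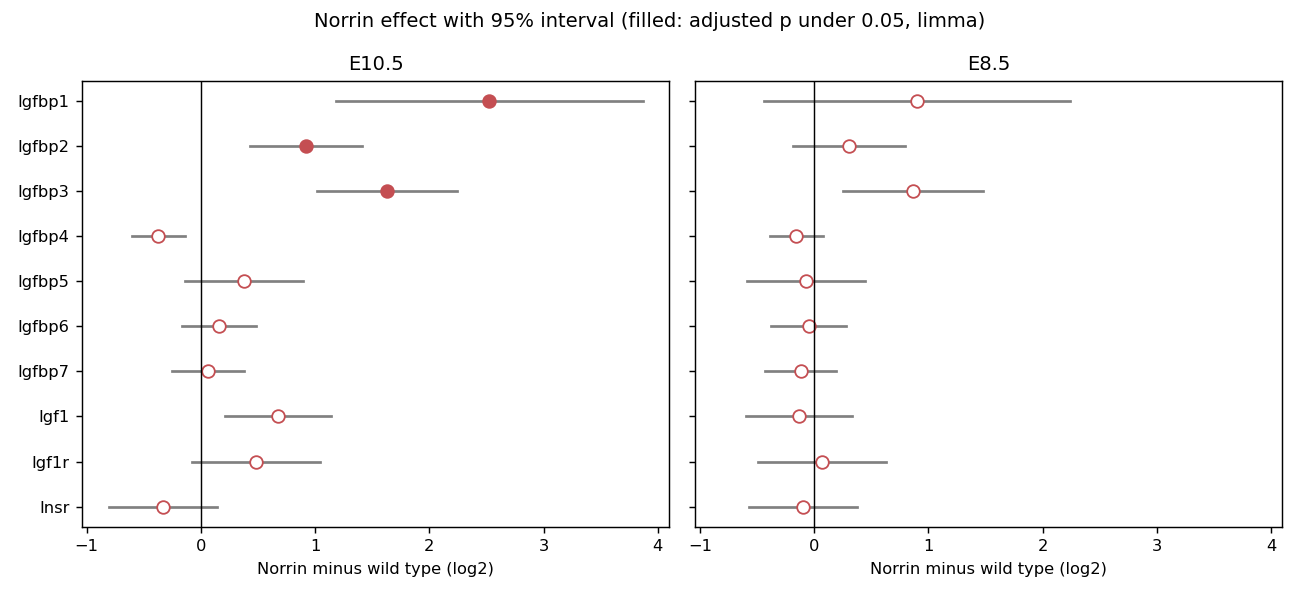
Norrin minus wild type (log2, horizontal axis) with its 95% interval for the 10 genes at E10.5 (left) and E8.5 (right), filled where limma gave an adjusted p under 0.05. Igfbp1, Igfbp2 and Igfbp3 are filled at E10.5 and no gene is at E8.5.

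Norrin effects were then compared between stages. The effect at E10.5 exceeded that at E8.5 by 1.62 for Igfbp1 (95% interval -0.27 to 3.52, adjusted p = 0.796), 0.76 for Igfbp3, 0.61 for Igfbp2 and 0.81 for Igf1 (unadjusted p = 0.0194 by limma, adjusted p = 0.523). By limma 0 of the 10 members passed, and Igf1 was the 1 with an unadjusted p under 0.05, where 0.0934% of genes passed and 7.01% had such a p. With the block within each stage, Igfbp1 passed (adjusted p = 0.0166), where 2.07% of genes did. With a block shared by both stages it did not (0.612), and with 1 array left out its difference ran from 0.99 (without wild type E8.5 replicate 3) to 2.40 (without Norrin E8.5 replicate 3). Its 3 paired differences at E10.5 all lay above its 3 at E8.5.

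Between stages, Igfbp1 was also the member with the largest difference. In wild type it measured 10.67 to 11.61 at E10.5, against 7.79 to 9.82 at E8.5, a 5.73-fold difference (log2 2.52, adjusted p = 0.0084). In Norrin it measured 13.37 to 13.85 at E10.5, against 8.39 to 11.01 at E8.5, a 17.7-fold difference (log2 4.14, adjusted p = 0.00032). By its means Norrin E10.5 was highest, then wild type E10.5, then Norrin E8.5 and wild type E8.5. The pools of the E8.5 groups overlap, and Norrin E8.5 replicate 3 (11.01) lay above 2 of the 3 wild type E10.5 pools. With 1 array left out the log2 difference ran from 3.61 (without Norrin E8.5 replicate 1) to 4.92 (without Norrin E8.5 replicate 3) in Norrin, and from 2.13 (without wild type E8.5 replicate 2) to 3.15 (without wild type E8.5 replicate 3) in wild type. Both stage differences stayed past the threshold when arrays were centred on their medians or quantile-normalized together (2.22 and 2.40 in wild type, 3.81 and 4.14 in Norrin).

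In wild type 5 of the 10 genes passed between stages, 3 higher and 2 lower at E10.5, where 32.5% of genes passed, 25.4% higher and 7.12% lower, and the median over all genes was 0.14. Insr was 2.22-fold higher at E10.5 (9.66 ± 0.21 at E10.5 and 8.51 ± 0.25 at E8.5, SD, n = 3 each, adjusted p = 0.0018). Igf1 had a level of 7.84 ± 0.17 at E10.5 and 8.60 ± 0.42 at E8.5 and fell by 0.76 (adjusted p = 0.0167), with all 4 probe sets negative. Igfbp6 was higher by 0.56 (adjusted p = 0.0127), a call lost with arrays centred on their medians (0.27, adjusted p = 0.155) or quantile-normalized together (0.27, adjusted p = 0.172). Igfbp7 fell by 0.46 (adjusted p = 0.0291), while the mean of its 3 probe sets gave 0.37, so its direction depended on the probe set. Igf1 lost its call without wild type E8.5 replicate 1 (adjusted p = 0.0675) or 2 (0.0502), or wild type E10.5 replicate 2 (0.0522) or 3 (0.0597). Igfbp7 lost its call without wild type E8.5 replicate 2 (0.0982) or 3 (0.0802), or wild type E10.5 replicate 2 (0.0699) or 3 (0.100). The block added Igfbp2 (-0.48, adjusted p = 0.0037) and Igf1r (0.51, 0.0138), where it passed 51.6% of genes. When limma tested every probe set, the second Igfbp5 probe set passed (0.85, adjusted p = 0.0074), against 0.07 for the brightest. The 5 Igf1r probe sets ran from -0.22 to 0.55, and 1 passed (0.55, adjusted p = 0.0261).

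In Norrin yolk sacs 5 of the 10 genes passed between stages, all higher at E10.5, where 37.9% of genes passed, 28.2% higher and 9.69% lower, and the median over all genes was 0.15. These were Igfbp1, Igfbp3 (0.83, adjusted p = 0.0351), Igfbp6 (0.77), Igf1r (0.93, adjusted p = 0.0137) and Insr (0.91, adjusted p = 0.0063). Igfbp3 lost its call without Norrin E8.5 replicate 1 (adjusted p = 0.140) or 2 (0.103), or any Norrin E10.5 array (0.0653 to 0.0901), and Igf1r without Norrin E10.5 replicate 3 (0.063). The block added Igfbp5 (0.52, adjusted p = 0.0062) and Igfbp7 (-0.28, 0.0234), where it passed 57.3% of genes. The other Igfbp7 probe sets gave 0.58 and 0.68, so its direction depended on the probe set here too. The second Igfbp5 probe set gave 0.94, with an adjusted p of 0.0036 when limma tested every probe set. With arrays centred on their medians the split of calls was 2 higher and 2 lower in Norrin, and 2 higher and 4 lower in wild type. With joint quantile normalization it was 4 higher and 1 lower in Norrin, and 2 higher and 2 lower in wild type. Centring took the calls of Igfbp3 (0.174), Igf1r (0.083) and Insr (0.0537) in Norrin, and quantile normalization that of Igfbp3 (0.0509). Igf1 measured 8.51 ± 0.35 at E10.5 and 8.46 ± 0.11 at E8.5 in Norrin, and its difference of 0.05 turned to -0.28 with arrays centred on their medians. The stage difference of Igfbp2 was 0.14 in Norrin and -0.48 in wild type and passed in neither (adjusted p = 0.667 and 0.127). The differences between these genotypes did not pass for Igf1 or Igfbp2 (adjusted p = 0.523 and 0.785).

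The rest of the IGF pathway was read from fixed lists, also chosen with earlier results of these data known. The shares over all genes apply to every list below. At E10.5 limma passed 1.85% of genes as higher and 2.22% as lower, and 14% had an unadjusted p under 0.05. At E8.5 limma passed 0.077% of genes, and 7.22% had an unadjusted p under 0.05. Of 6 other ligands, carriers and receptors 0 passed by limma at E10.5, 1 at an unadjusted p under 0.05, with a median of 0.00. That gene was the orphan insulin-receptor relative Insrr (-0.38, adjusted p = 0.265). Igf2, the main IGF of the embryo and named after its values were seen, measured 13.98 ± 0.06 in Norrin and 13.95 ± 0.12 in wild type at E10.5 (SD, n = 3 each). These Igf2 values lay above the 99th percentile of all array values, 12.72. At E8.5 also 0 of the 6 passed by limma, 2 at an unadjusted p under 0.05, with Igfals, the acid-labile partner of circulating IGF complexes, at -0.62 (adjusted p = 0.631).

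Of 7 proteases that cleave binding proteins and their inhibitors, 0 passed by limma at E10.5, 3 at an unadjusted p under 0.05, and 6 of 7 effects were positive (median 0.35). Stc2, a stanniocalcin that inhibits PAPPA, came nearest (7.95 ± 0.10 in Norrin and 7.51 ± 0.05 in wild type, adjusted p = 0.0566). At E8.5 limma passed 0 of the 7, none had an unadjusted p under 0.05 (0 of 7), and the median was -0.20. The protease gene Htra3 was lowest in p there (-0.35, adjusted p = 0.705).

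Of 8 receptor adaptors 1 rose and 1 fell at E10.5. Irs1, the docking protein of the insulin and IGF1 receptors, measured 10.13 ± 0.17 in Norrin and 9.17 ± 0.09 in wild type (0.95, adjusted p = 0.0249). Shc1, which links receptors to Ras, measured 9.85 ± 0.23 in Norrin and 10.57 ± 0.12 in wild type (-0.72, adjusted p = 0.0312). At E8.5 Irs1 had an effect of 0.76 with no overlap of groups (adjusted p = 0.389). Of 14 measured genes of the PI3K, Akt, FoxO and mTOR chain 0 passed by limma at E10.5, 3 at an unadjusted p under 0.05, and Foxo3, a transcription factor that Akt inhibits, had an effect of 0.68 (adjusted p = 0.0537). At E8.5 0 of these 14 passed by limma and 0 had an unadjusted p under 0.05, with Pik3ca lowest in p (-0.27).

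Of 8 targets that FoxO drives or insulin represses, 0 passed by limma at E10.5. At an unadjusted p under 0.05 there were 4 of the 8, against 14% of all genes, and the median was -0.12. Ppargc1a, a coactivator of liver fasting genes, came nearest (-0.46, adjusted p = 0.0899). The widest effect of the 8, named after its values were seen, was that of the transcriptional coregulator Cited2, at 12.01, 12.50 and 12.13 in Norrin and 11.07, 11.37 and 11.25 in wild type (0.98, adjusted p = 0.224). The summed level of the list ran from 12.34 to 12.81 in Norrin and from 11.80 to 12.02 in wild type, above it although 6 of the 8 effects were negative. At E8.5 G6pc, the glucose-6-phosphatase gene, was lowest in p of these 8 (-0.26, adjusted p = 0.711), where limma passed 0 and 0 had an unadjusted p under 0.05. The 2 measured IGF2 mRNA-binding proteins did not pass at either stage, with Igf2bp3 at -0.05 at E10.5 and -0.03 at E8.5.

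Of 10 other genes whose proteins carry an IGFBP domain, 3 rose at E10.5 and 0 fell, with a median of 0.39. These were the matricellular genes Ccn2 (2.28, adjusted p = 0.0025) and Ccn1 (1.62, adjusted p = 0.0029) and the BMP-binding membrane gene Crim1 (1.32, adjusted p = 0.0264). At E8.5 0 passed by limma, 3 at an unadjusted p under 0.05, with Ccn4 at 0.55. Of 12 hypoxia-responsive genes 5 rose at E10.5, among them Ddit4 (2.02), Egln3 (1.99), Hk2 (1.61) and Adm (1.61), and the list's median was 0.90. Their summed level ran from 15.38 to 15.63 in Norrin and from 15.0 to 15.11 in wild type at E10.5. At E8.5 it ran from 14.88 to 14.98 in Norrin and from 14.86 to 15.16 in wild type, where limma passed 0 of the 12, 2 had an unadjusted p under 0.05, and Hk2 stood at 0.56. The part of this shift in the level of Igfbp1 and Igfbp3 was not tested.

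**Figure D5:**
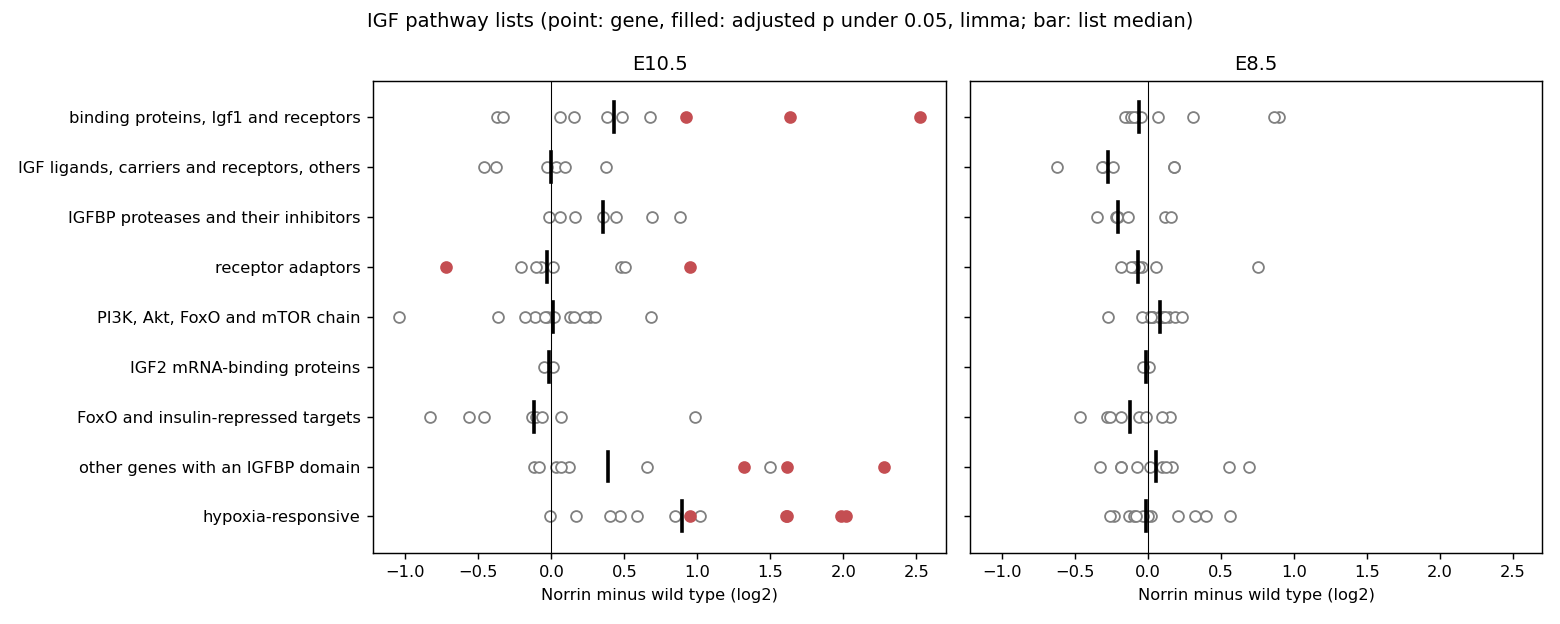
Norrin minus wild type (log2, horizontal axis) of every measured gene of the 10 members and 8 pathway lists at E10.5 (left) and E8.5 (right), filled where limma gave an adjusted p under 0.05, with the median of each row as a bar. Filled points lie in the rows of the members, the receptor adaptors, the IGFBP-domain genes and the hypoxia-responsive genes at E10.5, and in no row at E8.5.

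Neighbouring genes were compared on the genome (GRCm38.p6). Igfbp1 (chromosome 11, 7197787 to 7202546) and Igfbp3 (7206086 to 7215498) are 3539 bases apart, and both rose. The nearest measured gene on the Igfbp1 side, Ccdc201, lies 9217 bases away and had an effect of -0.07 at E10.5. On the Igfbp3 side the nearest measured gene, Tns3, lies 1216153 bases away and had an effect of 0.08. Igfbp2 (chromosome 1, 72824480 to 72852474) and Igfbp5 (72858065 to 72874865) are 5590 bases apart, with effects of 0.92 and 0.38. Top2a and Tns4, on either side of Igfbp4 on chromosome 11, had effects of 0.15 and -0.00.

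By correlation over the 12 arrays after removing each stage's mean, the genes most like Igfbp1 were Taf7 (r = 0.981), a subunit of the general transcription factor TFIID, the matrix gene Tgfbi (0.967) and the kinase Cdk19 (0.960). For Igfbp3 they were the water channel Aqp8 (0.981), Heca (0.968) and Epas1 (0.964), which encodes the hypoxia-inducible factor HIF-2 alpha. For Igfbp2 they were Cystm1 (0.965), Fam162a (0.952) and Cmtm7 (0.947). Aqp8, Heca and Epas1 had Norrin effects of 2.64, 1.11 and 1.83 at E10.5 (adjusted p = 0.0019, 0.0092 and 0.0018). Among the members the correlation with Igfbp1 was 0.79 for Igfbp3, 0.63 for Igfbp2 and -0.68 for Igfbp4. These 12 arrays share the group structure, which raises the correlation of any genes that Norrin moves.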

How the data were processed

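Each deposited array column holds log2 values from RMA (robust multi-array averaging), per the submitters' processing notes, with no version given. RMA corrects background, quantile-normalizes arrays and summarises each probe set. The table held 45101 probe sets on 12 arrays and 0 columns of other samples. Of these probe sets, 64 were controls, 34945 had 1 gene in the platform annotation of 2016, 932 had several and 9160 had none. Symbols were updated through gene IDs to RefSeq (GRCm38.p6), whose positions and promoter sequences are used. Each gene took its brightest probe set over 12 arrays, which left 18193 genes.

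Differences were tested with limma 3.58.1 (R 4.3.3). The model had 1 mean per group over 12 arrays, tests were two-sided, p-values were Benjamini-Hochberg adjusted across the 18193 genes, and the threshold was 0.05. Residual and prior degrees of freedom were 8 and 4.17. The fit was tested on simulated data. Arrays have no read depth, and their number limits the precision. The members, lists and tests were chosen with earlier results of these data known. All members are named. Up to 4 called genes per list and Norrin contrast are named, or the 1 with the lowest p, and the 3 genes most correlated with each called member among those at or above the median level. Some listed genes are not analysed here. Pools of the same replicate number were taken as pairs, which the labels do not state. The report gives the correlations of their deviations. Alternatives were a replicate block within or across stages, median centring, the mean of all probe sets, every probe set on its own, a level filter, a single-stage fit, joint quantile normalization and leaving out each array.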

Additional observations from a re-analysis of the deposited data

How the results depend on the processing

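The 3 members called at E10.5 became 5 with the replicate block within each stage and 1 to 3 with 1 array left out, and ran from 2 to 3 under the other alternatives. With every probe set tested, the 2 genes were Igfbp3 and Igfbp4, and Igfbp1 and Igfbp2 were lost. At E8.5 and for the difference of the Norrin effects the count went from 0 to 1 with the block within each stage and was 0 under all other alternatives. The 5 called between stages in wild type became 7 genes with every probe set tested on its own, and the block within each stage added Igfbp2 and Igf1r. The count was 3 with genes at or above the median level only, where Igfbp6 was not tested and Igfbp7 had an adjusted p of 0.0543. With 1 array left out it was 3 to 5. The 5 called in Norrin became 8 genes with every probe set tested on its own, and 3 to 5 with 1 array left out. Over all genes the count at E10.5 was 741, and 353 to 894 with 1 array left out. At E8.5 it was 14, 257 with the block within each stage, 5 with the block shared by both stages and 0 with the 6 arrays of the stage alone.

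Directions turned as follows, and the cause was not tested. With arrays centred on their median, the stage difference became -0.28 for Igf1 and -0.20 for Igfbp2 in Norrin, and -0.23 for Igfbp3 and -0.22 for Igfbp5 in wild type. With joint quantile normalization it became -0.12 for Igf1 in Norrin, and -0.12 for Igfbp3 and 0.045 for Igfbp4 in wild type. With the mean of all probe sets Igfbp7 became 0.33 in Norrin and 0.37 in wild type between stages, -0.14 for Norrin at E10.5 and -0.042 for the difference of effects. With 1 array left out, the E8.5 effect ran from -0.28 to 0.148 for Igfbp5, -0.12 to 0.060 for Igfbp6, -0.36 to 0.065 for Igf1, -0.038 to 0.21 for Igf1r and -0.37 to 0.074 for Insr, and the difference of effects from -0.41 to 0.037 for Insr. The stage difference in wild type ran from -0.15 to 0.24 for Igfbp3, -0.030 to 0.011 for Igfbp4 and -0.14 to 0.24 for Igfbp5, and in Norrin from -0.14 to 0.34 for Igfbp2 and -0.074 to 0.25 for Igf1.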
